A study of Mus musculus with 12 samples.

Results

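The genes described here encode the respiratory complexes and ATP synthase of the inner mitochondrial membrane, in N2a mouse neuroblastoma cells in which the nuclear protein SAP30BP was depleted and then replaced by 1 of 2 isoforms. Members were taken by gene name from the authors' deposited table of gene expression: the Ndufa, Ndufb, Ndufc, Ndufs and Ndufv genes without the Ndufaf assembly factors, the Uqcr and Atp5 genes, Sdha, Sdhb, Sdhc, Sdhd and Sdhaf2, and the mitochondrial mt-Nd, mt-Co, mt-Cyt and mt-Atp genes. Rows named as pseudogenes were left out, and each row needed a value in all 6 groups. This gave 85 of the 54393 rows, 72 nuclear and 13 mitochondrial. Of these, 69 nuclear and all 13 mitochondrial rows carry a test in the authors' deposited table. The other 3 nuclear rows (Ndufa11b, Ndufs6b and a second gene ID of Atp5o) carry none and are listed there at 0, apart from 0.06 RPKM for the second Atp5o in 1 group.

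The study held 12 polyA RNA libraries in 6 groups of 2 biological replicates. In both N2a Flp-In rtTA lines doxycycline induces a FLAG-tagged Sap30bp cDNA, which holds exon 3 in one (the containing line) and not in the other (the lacking line). Within each line, rescue cells received an siRNA against Sap30bp and then doxycycline, knockdown cells received the same siRNA without doxycycline, and control cells received a non-targeting siRNA without doxycycline. Medium with or without the drug was given 24 hours after transfection and cells were harvested at 72 hours. No group had the non-targeting siRNA with doxycycline, so the drug and the induced isoform cannot be told apart, and neither can the isoform and the line.

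Mitochondrial respiration passes electrons from NADH through complex I, or from succinate through complex II, to ubiquinone and then through complex III, cytochrome c and complex IV to oxygen. Complexes I, III and IV move protons across the inner membrane, and ATP synthase uses their return to make ATP. Most subunits are encoded in the nucleus, many with short and abundant mRNAs, and a small set is encoded by mitochondrial DNA. Mitochondrial DNA is transcribed as long precursors that are cut into mRNAs. SAP30BP is known as a partner of RBM17 in the splicing of short introns.

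In the authors' deposited table, Sap30bp itself was at 141.3 RPKM in rescue, 18.6 RPKM in knockdown and 33.6 RPKM in control cells of the containing line. It was at 196.5 RPKM in rescue, 21.7 RPKM in knockdown and 40.0 RPKM in control cells of the lacking line, by the authors' deposited table. RPKM scales reads by transcript length and library size, which allows a rough comparison between genes. How well this scaling holds for members shorter than the mean library insert, such as mt-Atp8, was not tested. RPKM was given as 1 value per group and has no replicate error here. Of 12 sympathetic neuroblast markers, 10 or 11 were at 1 RPKM or more in each group of the authors' deposited table. The fibroblast markers summed to 1.81 to 4.54 RPKM and the glial and immune markers to 9.08 to 11.6 RPKM over the groups of the authors' deposited table. In bulk RNA, fewer cells of a kind and less RNA per cell cannot be told apart, and the depth of the libraries is unknown.

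The sequences shown first belong to the 1 splicing event, of the 47 tested in respiratory genes, that was called on knockdown over both lines. Of all events tested, 1.48% were called. The event is a 5' splice site of Sdhaf2, which encodes an assembly factor that helps attach FAD to the flavoprotein subunit of complex II. Sdhaf2 exon 2 lies on mouse chromosome 19 (GRCm38, chr19:10517169-10517386, minus strand) and intron 2 follows it (chr19:10517090-10517168, minus strand). In exon 2, capitals mark the 151 bases that are exonic with the downstream 5' splice site and intronic with the upstream one. In intron 2, capitals mark its first and last bases.
Sdhaf2 exon 2: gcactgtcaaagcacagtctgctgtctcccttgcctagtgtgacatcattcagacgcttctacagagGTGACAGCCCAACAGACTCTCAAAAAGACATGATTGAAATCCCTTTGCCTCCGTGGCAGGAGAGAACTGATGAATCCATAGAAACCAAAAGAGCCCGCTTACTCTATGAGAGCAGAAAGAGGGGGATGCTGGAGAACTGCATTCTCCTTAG
Sdhaf2 intron 2: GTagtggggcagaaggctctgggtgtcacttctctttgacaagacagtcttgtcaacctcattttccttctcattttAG
Intron 2 is 79 nt long with the downstream site and 230 nt long with the upstream site. Skipping the 151 bases shifts the reading frame, and the first stop codon in the new frame starts at base 30 of the 110 bases of exon 3. GENCODE M21 lists the transcript with the upstream site under nonsense-mediated decay. If intron 2 is retained, an in-frame stop starts at its base 2.

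Sdhaf2 used the downstream 5' splice site of exon 2 less often after Sap30bp knockdown, over both lines together. This site was used in 55.6% and 61.2% of transcripts in the knockdown libraries of the containing line, against 81.0% and 74.6% in its control libraries. The lacking line used it in 62.0% and 45.3% of transcripts in the knockdown libraries, against 86.4% and 83.0% in the control libraries. All 4 knockdown libraries lay below all 4 control libraries. The mean over both lines fell by 25.2 points (SE 4.0, limma, adjusted p = 0.00959 over 28980 events). Within single lines the difference was -19.4 points in the containing line (adjusted p = 0.164, limma) and -31.1 points in the lacking line (adjusted p = 0.0688, limma). The call rests on the controls: the adjusted p was 0.0520 without control replicate 1 of the containing line and 0.0521 without that of the lacking line (limma), with differences of -23.6 and -24.4 points. With the rescue cDNA, use of the site was 58.0% and 70.6% in the containing line and 72.6% and 78.3% in the lacking line, so every rescue library lay below the controls of its own line. Rescue against knockdown was 5.89 points in the containing line (SE 5.72, adjusted p = 0.926, limma) and 21.8 points in the lacking line (SE 5.72, adjusted p = 0.294, limma), and neither passed. The difference of this rescue effect between the lines was -15.9 points (SE 8.09, adjusted p = 0.933, limma).

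Retention of the 79 nt intron 2 of Sdhaf2 had a value in 11 of 12 libraries and so was not tested. It was retained in 7.89% and 11.1% of transcripts in the knockdown libraries of the containing line, against 5.51% and 4.11% in the controls. Retention in the lacking line was 9.20% and 12.0% in the knockdown libraries, against 2.17% and 2.52% in the controls. In rescue libraries it was 4.76% in the 1 containing library with a value, and 4.52% and 4.62% in the lacking line. The 4 knockdown libraries were thus the highest of the 11. The level of the Sdhaf2 mRNA in the authors' deposited table was 21.5 RPKM in rescue, 19.7 RPKM in knockdown and 19.4 RPKM in control cells of the containing line. The lacking line had 23.6 RPKM of Sdhaf2 in rescue, 18.4 RPKM in knockdown and 20.9 RPKM in control cells, by the authors' deposited table. No comparison of the Sdhaf2 level passed an FDR of 0.05 in the authors' deposited table, with knockdown log2 fold changes of 0.03 in the containing and -0.23 in the lacking line.

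**Figure D1:**
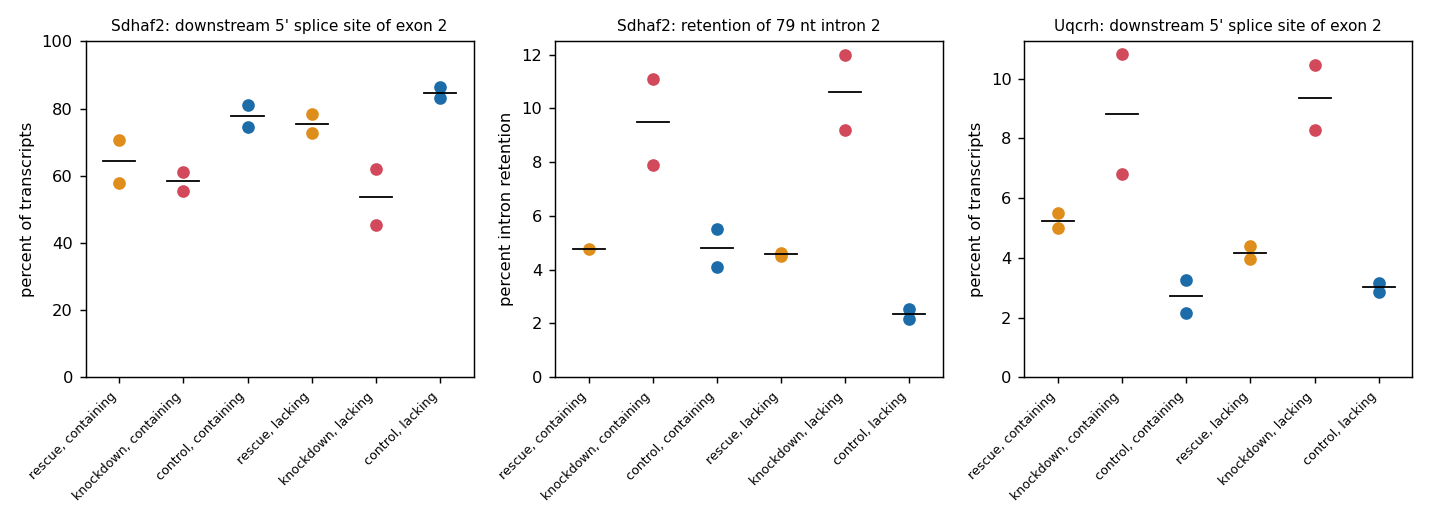
Use of the downstream 5' splice site of Sdhaf2 exon 2 (left), retention of Sdhaf2 intron 2 (middle) and use of the downstream 5' splice site of Uqcrh exon 2 (right), in percent, with 1 point per library and a bar at each group mean; groups run along the horizontal axis, containing line first. The knockdown libraries of Sdhaf2 lie between 45.3% and 62.0% and the controls between 74.6% and 86.4%, and those of Uqcrh lie between 6.80% and 10.8% against 2.16% to 3.26%.

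Events of 68 member genes are in the authors' vast-tools inclusion table, and 558 of their 652 events with any value had one in all 12 libraries. Most are nearly constitutive: of 187 introns of member genes with a full set of values, 171 were retained in under 2% of transcripts on average. Only events with a mean between 2% and 98% were tested, which left 47 events in 25 member genes, namely 16 introns, 12 alternative 5' splice sites, 10 alternative 3' splice sites and 9 cassette exons. Of these, 1 was called (adjusted p under 0.05 and at least 15 points, limma) for knockdown against control over both lines, the Sdhaf2 site, where 1.48% of all events tested were called. At any size, 3 of 47 had an adjusted p under 0.05, against 3.86% of all events, and 15 of 47 had an unadjusted p under 0.05, against 19.1% of all events. Within single lines, 0 member events were called for knockdown (0.338% of all events in the containing and 0.0207% in the lacking line), with 8 unadjusted p under 0.05 in each line by limma (13.5% of all events in the containing and 10.5% in the lacking line). Rescue against knockdown gave 0 called member events in either line (0.0% of all events in the containing and 0.00345% in the lacking line), with 0 and 7 unadjusted p under 0.05 by limma (6.84% and 8.57% of all events). Rescue against control also gave 0 (0.0% and 0.00345% of all events), with 1 and 2 unadjusted p under 0.05 by limma (8.39% and 5.58% of all events). The differences between the lines gave 0 member events for knockdown (0.0% of all events) and 0 for rescue (0.00345%), with 1 unadjusted p under 0.05 each by limma (3.2% of all events for knockdown and 5.27% for rescue).

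The other member with an adjusted p under 0.05 was Uqcrh, the hinge protein of complex III, whose acidic stretch lies beside cytochrome c1. Its exon 2 has an extended form, shown because its use was higher after knockdown. It lies on chromosome 4 (GRCm38, chr4:116070668-116070757, minus strand), and capitals mark the 69 bases that are included with the downstream 5' splice site.
Uqcrh exon 2, long form: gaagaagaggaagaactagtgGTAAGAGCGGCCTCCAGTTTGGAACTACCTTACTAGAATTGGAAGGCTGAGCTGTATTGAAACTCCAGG
The short form of 21 bases is the coding one, and the extension holds an in-frame stop at its base 34. The downstream site was used in 6.80% and 10.8% of transcripts in the knockdown libraries of the containing line, against 2.16% and 3.26% in the controls. The lacking line used it in 8.28% and 10.5% of transcripts in the knockdown libraries, against 2.87% and 3.15% in the controls. Rescue libraries gave 4.99% and 5.50% in the containing and 4.38% and 3.96% in the lacking line, below every knockdown library and above every control library. Over both lines the knockdown difference was 6.23 points (SE 1.35, limma, adjusted p = 0.0295), under the 15 points set for a call, and the adjusted p stayed under 0.05 in 6 of 12 fits without 1 library. The coding site of the same exon showed the mirror image, with a difference of -6.25 points. No comparison of the Uqcrh mRNA level passed an FDR of 0.05, and its knockdown log2 fold changes were -0.08 in the containing and -0.28 in the lacking line in the authors' deposited table.

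Among the 6 largest knockdown differences, those that did not pass were in genes of ATP synthase. A 5 nt alternative 3' splice site of Atp5g2 differed by -6.93 points (SE 1.86, limma, adjusted p = 0.0669). Its use was 6.10% and 9.09% in knockdown against 10.2% and 7.41% in control libraries of the containing line, which overlap, and 4.76% and 4.49% against 19.5% and 15.1% in the lacking line, which do not. A 27 nt alternative 3' splice site of Atp5g1 differed by -7.11 points (SE 4.78, limma, adjusted p = 0.470). An 89 nt exon of Atp5d, which encodes the delta subunit, was included in 87.7% ± 1.12 of transcripts in knockdown libraries of the containing line. The control libraries of that line had 94.1% ± 2.17. In the lacking line inclusion was 89.2% ± 3.40 in knockdown against 93.8% ± 2.90 in control libraries (SD, n = 2 each). That is a difference of -5.48 points over both lines (SE 1.66, limma, adjusted p = 0.0975).

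The authors' own table of 2175 differential splicing events lists 3 of member genes, in Sdhaf2, Ndufa12 and Ndufs5. For Sdhaf2, the authors' deposited table of events gives knockdown changes of -18.8 points in the containing and -30.3 points in the lacking line, both called, and a rescue change of 21.2 points in the lacking line, also called. For a 15 nt alternative 3' splice site of Ndufa12, an accessory subunit of complex I, the authors' deposited table of events gives called knockdown changes of 26.3 and 32.0 points in the containing and lacking lines. A called change of 24.1 points for rescue against control in the lacking line stands beside them in the authors' deposited table of events. The inclusion table gives this Ndufa12 site at 18.8% in the 1 knockdown library with a value, against 8.33% and 10.9% in control libraries of the containing line. In the lacking line it was at 50% and 37.1% in knockdown, against 10.0% and 10.7% in control libraries. One knockdown library of the containing line had no value, so this event was not tested. In that line the inclusion values lie closer together than the authors' change of 26.3 points, and how that change was computed is not given. For Ndufs5, the authors' deposited table of events calls a change of -17.0 points for rescue against knockdown in the lacking line, where 1 of the knockdown libraries had no value.

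No respiratory gene passed the authors' FDR of 0.05 on knockdown. In the authors' deposited table, 0 of 69 nuclear and 0 of 13 mitochondrial members were called in the containing line, where 3.68% of the 21541 genes tested were called by edgeR. At an unadjusted p under 0.05, 1 nuclear and 0 mitochondrial members were lower in the authors' deposited table, against 8.09% of all genes. In the lacking line, 0 of 69 and 0 of 13 members were called, against 2.26% of all genes, and 2 nuclear and 1 mitochondrial members were lower at an unadjusted p under 0.05 (6.6% of all genes) in the authors' deposited table. The nuclear members had a median log2 fold change of -0.08 in the containing line, with 53 of 69 below 0, in the authors' deposited table. Their median was -0.21 in the lacking line of the authors' deposited table, with 64 of 69 below 0. The median of all genes tested was 0.00 in both lines of the authors' deposited table, with 10747 and 10789 genes below 0.

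The gene at the low end in both lines was Ndufv3, an accessory subunit of the NADH-oxidizing part of complex I. Its level in the authors' deposited table was 127.3 RPKM in knockdown against 215.8 RPKM in control cells of the containing line, and 106.6 against 200.1 RPKM in the lacking line. The log2 fold changes of Ndufv3 were -0.71 (FDR 0.110) and -0.76 (FDR 0.0939) in the authors' deposited table, short of the threshold in each line. Ndufv3 was at 128.2 RPKM in rescue cells of the containing line and at 182.1 RPKM in rescue cells of the lacking line, by the authors' deposited table. Ndufc1, a small membrane-arm subunit of complex I, followed, at 128.6 RPKM in knockdown against 147.3 RPKM in control cells of the containing line of the authors' deposited table. In the lacking line Ndufc1 was at 100.3 against 171.4 RPKM, and its log2 fold changes were -0.37 and -0.67 in the authors' deposited table. At the other end of complex I stood Ndufs1, the largest subunit, which holds iron-sulfur clusters, with 0.09 and 0.12, and the core subunit Ndufs3 with 0.12 and -0.08, in the authors' deposited table. In complex III the lowest were Uqcrh and Uqcrb, at -0.12 for Uqcrb as the mean of both lines, and the highest were Uqcr10 at 0.07 and the Rieske iron-sulfur protein gene Uqcrfs1 at 0.06, in the authors' deposited table. ATP synthase ranged over the mean of both lines between -0.32 for Atp5l and -0.25 for Atp5d at the low end and 0.09 for Atp5g1 and 0.10 for Atp5g2 at the high end, in the authors' deposited table.

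Rescue against knockdown had values above 0 throughout the nuclear members in the lacking line, with no single gene past the threshold. The comparisons with knockdown and those of knockdown with control share the knockdown libraries of a line. In the lacking line all 69 nuclear members had a log2 fold change above 0, with a median of 0.62 and a range of 0.01 to 0.94, in the authors' deposited table. In the containing line the median was 0.06 and 46 of 69 were above 0 in the authors' deposited table. The 9060 genes at 5 RPKM or more were set beside this by the log2 ratio of RPKM (pseudocount 1), a different measure from the deposited fold changes. Their median was 0.0 in the containing and 0.03 in the lacking line, from the authors' deposited table. By the same ratio, 52 and 67 of 69 nuclear members were above 0. None was called in either line of the authors' deposited table, where edgeR called 0.00464% of all genes in the containing and 0.0232% in the lacking line. At an unadjusted p under 0.05, 0 nuclear members were higher in the containing line, against 0.604% of all genes, and 16 in the lacking line, against 2.45% of all genes, in the authors' deposited table. The lowest FDR of a nuclear member in that comparison was 0.727 in the authors' deposited table. Against control, the median of the nuclear members was -0.02 after rescue in the containing line (29 of 69 above 0) and 0.34 in the lacking line (66 of 69 above 0), in the authors' deposited table. By the ratio of RPKM, the 9060 genes had medians of 0.01 and 0.03 against control, from the authors' deposited table. By that ratio, 36 and 66 of 69 nuclear members were above 0. Here too 0 nuclear members were called, against 2.27% of all genes in the containing and 0.924% in the lacking line by edgeR, with 1 lower in the containing line (6.42% of all genes) and 2 higher in the lacking line (3.03%) at an unadjusted p under 0.05, in the authors' deposited table. Of the 6 groups, the rescue group of the lacking line had the highest RPKM for 45 of 69 nuclear members and its knockdown group the lowest for 56, in the authors' deposited table.

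**Figure D2:**
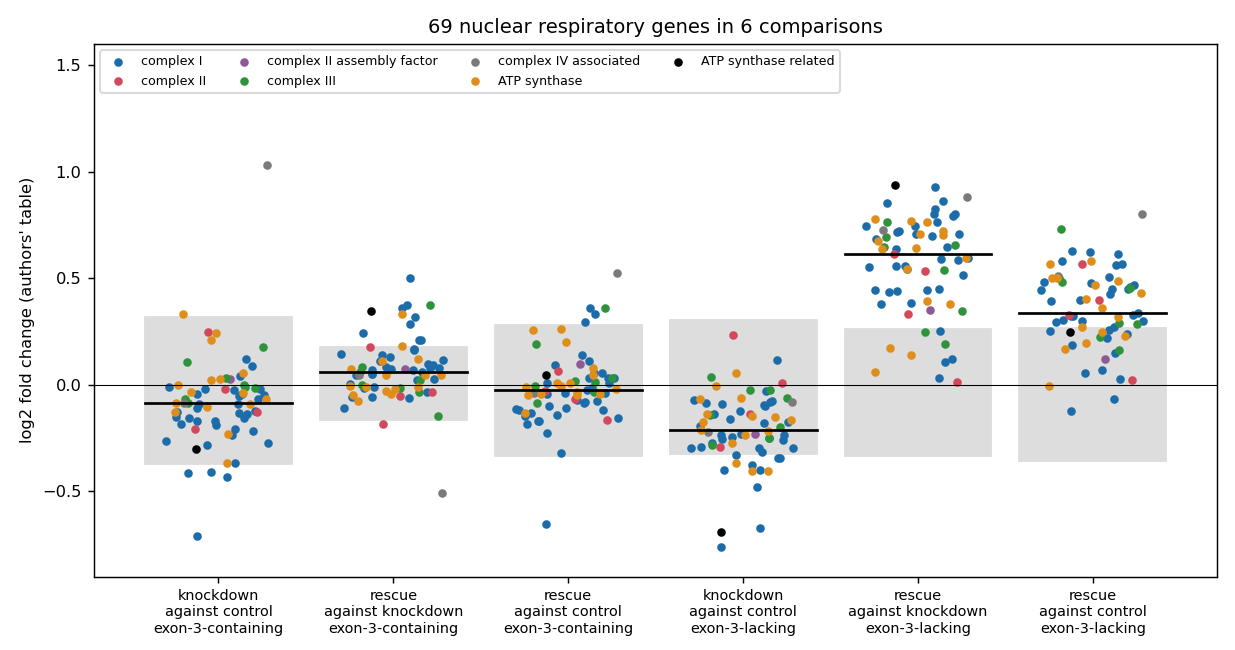
Log2 fold changes of the 69 tested nuclear members in the 6 comparisons within lines, from the authors' deposited table; each point is a gene, coloured by complex, the black bar is their median and the grey box the middle 50% of all genes tested. Rescue against knockdown in the lacking line has all 69 points above 0 with a median of 0.62, against 0.06 in the containing line.

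The difference between the lines was tested from the deposited p-values, turned into signed z values. For rescue against knockdown, the change was lower in the containing line for 66 of 69 nuclear members, with a median difference of -0.57 on the log2 scale, from the authors' deposited table. Over all genes tested it was lower for 9997 of 21541, with a median difference of 0.04, from the authors' deposited table. For 0 of 69 nuclear and 0 of 13 mitochondrial members did the difference have an adjusted p under 0.05, against 0.00928% of all genes, and 0 of either had an unadjusted p under 0.05, against 1.37% of all genes. For knockdown the median difference of the nuclear members was 0.12, and 0 members passed an adjusted p (0.00928% of all genes) or an unadjusted p (1.25%) under 0.05. Among the members, the pattern is therefore one of direction over many genes and not of any single gene that passed a test. Genes measured in the same libraries are not independent. Medians above 0 for rescue against knockdown in the lacking line were also found for cytosolic ribosomal protein genes and other short, abundant genes, as given below.

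By complex, rescue against knockdown in the containing and lacking lines had medians of 0.08 and 0.60 over the 37 nuclear complex I genes, in the authors' deposited table. Complex I oxidizes NADH, and its 7 nuclear core subunits, which carry the flavin and iron-sulfur clusters, had medians of 0.09 and 0.38 in the authors' deposited table. Complex III, with 8 genes, had 0.01 and 0.59, and the 16 ATP synthase genes had 0.02 and 0.64, in the authors' deposited table. Complex II oxidizes succinate in the tricarboxylic acid cycle and has no mitochondrially encoded subunit. Its flavoprotein gene Sdha was at 100.8 RPKM in rescue, 94.8 in knockdown and 107.9 in control cells of the containing line, and at 89.7, 106.8 and 100.6 RPKM in rescue, knockdown and control cells of the lacking line, in the authors' deposited table. The iron-sulfur subunit gene Sdhb was at 263.0 RPKM in rescue, 232.3 in knockdown and 261.2 in control cells of the containing line, and at 288.9, 176.6 and 217.8 RPKM in rescue, knockdown and control cells of the lacking line, in the authors' deposited table. The deposited fold change and the RPKM disagree for Sdha in the lacking line: rescue against knockdown is 0.01 on the log2 scale in the test and below 0 as a ratio of RPKM, in the authors' deposited table. By the ratio of RPKM, 67 of 69 nuclear members were higher in rescue than in knockdown cells of that line and 52 of 69 in the containing line, in the authors' deposited table. The membrane anchors Sdhc and Sdhd had rescue against knockdown log2 fold changes of -0.05 and -0.18 in the containing line and of 0.53 and 0.33 in the lacking line, in the authors' deposited table.

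By RPKM, the most abundant nuclear members in controls were Ndufa4, Atp5b and Atp5g3. Ndufa4 is a subunit associated with complex IV, Atp5b the catalytic beta subunit and Atp5g3 a c-ring gene. Ndufa4 was at 1244 RPKM in rescue, 1231 in knockdown and 1275 in control cells of the containing line, and at 1621, 936 and 1123 RPKM in rescue, knockdown and control cells of the lacking line, in the authors' deposited table. Atp5b was at 1368, 1116 and 1125 RPKM in rescue, knockdown and control cells of the containing line, and at 1352, 1164 and 1165 RPKM in the same groups of the lacking line, in the authors' deposited table. The RPKM of Atp5b and its deposited fold changes disagree: rescue against knockdown in the containing line was -0.01 on the log2 scale in the test of the authors' deposited table. Between the lines, rescue cells had log2 fold changes of -0.28 for Atp5b and -0.32 for Ndufa4, neither past the threshold (FDR 0.821 and 0.917), in the authors' deposited table. Atp5k, Atp5c1, Atp5h, Atp5l, Uqcrb, Atp5e and Uqcrh made up the rest of the 10 most abundant, with rescue against knockdown log2 fold changes between -0.05 and 0.18 in the containing and between 0.38 and 0.78 in the lacking line, in the authors' deposited table.

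The c-ring of ATP synthase, the rotor that protons turn, is built from 1 mature protein that 3 genes encode. Atp5g3 was at 1262 RPKM in rescue, 1119 in knockdown and 1199 in control cells of the containing line, and at 1240, 830 and 949 RPKM in rescue, knockdown and control cells of the lacking line, in the authors' deposited table. Atp5g1 was at 135.2, 140.5 and 117.1 RPKM in rescue, knockdown and control cells of the containing line, and at 184.9, 114.5 and 122.8 RPKM in the same groups of the lacking line, in the authors' deposited table. Atp5g2 was at 89.6, 94.7 and 71.1 RPKM in rescue, knockdown and control cells of the containing line, and at 115.0, 71.0 and 78.3 RPKM in the same groups of the lacking line, in the authors' deposited table. Over their last 225 coding bases the c-ring genes are 84.9% (Atp5g1 and Atp5g2), 80.0% (Atp5g1 and Atp5g3) and 78.7% (Atp5g2 and Atp5g3) identical, and their longest identical coding runs are 20, 11 and 8 bases. How reads were divided between these genes is not given, and only their coding bases were compared, which limits what these levels show. The sequences of Ndufb4 and Ndufb4c were not compared, and the division of their reads is not given either.

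**Figure D3:**
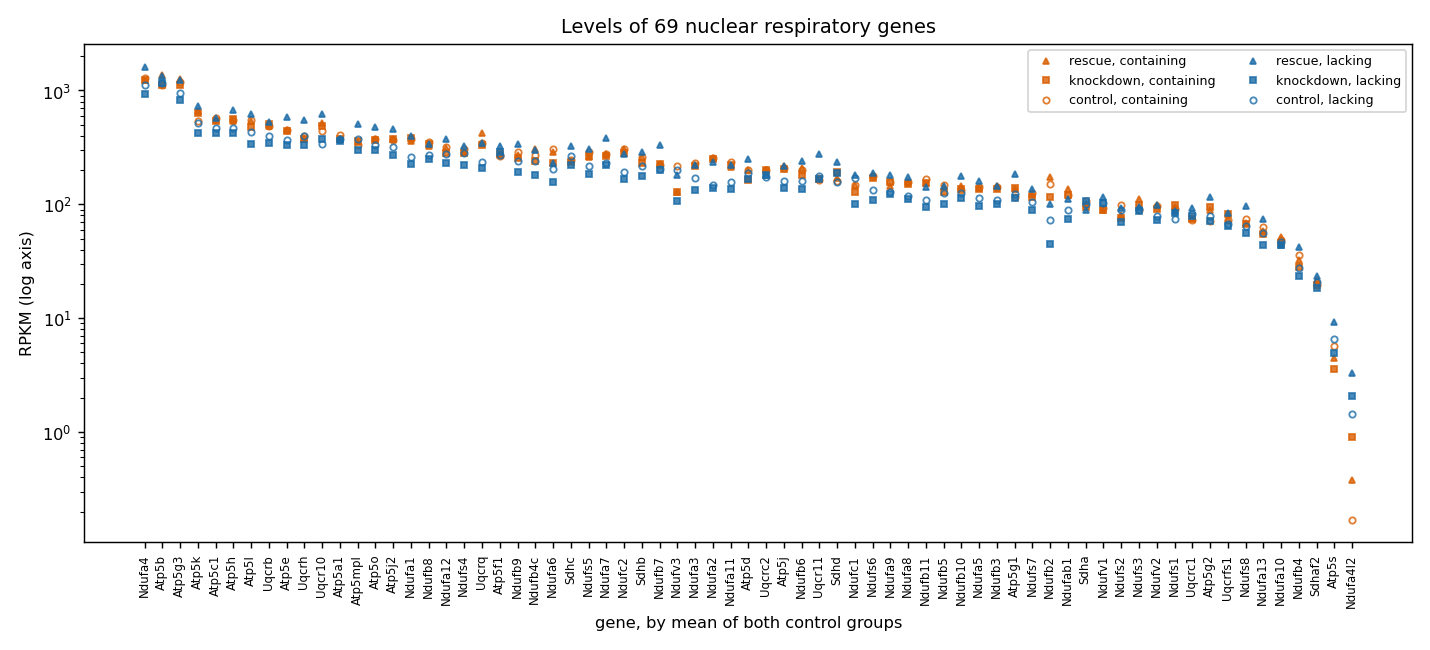
RPKM on a log axis of the 69 tested nuclear members in the 6 groups, from the authors' deposited table, ordered by the mean of both control groups; triangles are rescue, squares knockdown and open circles control, in orange for the containing and blue for the lacking line. Ndufa4 stands at the top and Ndufa4l2 at the bottom, between 0.17 and 3.33 RPKM.

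Only Ndufa4l2, a paralog of Ndufa4 that is known as a hypoxia-induced gene, differed between the lines past the threshold. It was at 0.38 RPKM in rescue, 0.91 in knockdown and 0.17 in control cells of the containing line, and at 3.33, 2.05 and 1.43 RPKM in rescue, knockdown and control cells of the lacking line, in the authors' deposited table. The groups of the containing line thus all lay below those of the lacking line. In the authors' deposited table, Ndufa4l2 was lower in the containing line in control (log2 fold change -2.85, FDR 0.000183) and in rescue (-3.12, FDR 6.45e-06), and its knockdown value was -1.73 (FDR 0.0732). It was 1 of 69 nuclear members called in control (3.73% of all genes by edgeR) and 1 of 69 in rescue (3.29%), and 0 of 69 were called in knockdown (2.9%), where 3 had an unadjusted p under 0.05 (12.2% of all genes), in the authors' deposited table. None of the 13 mitochondrial members was called between the lines, with 0, 1 and 1 at an unadjusted p under 0.05 in control (11.5% of all genes), knockdown and rescue (11.9%), by edgeR in the authors' deposited table. The nuclear members had a median log2 difference of the containing from the lacking line of 0.19 in control, 0.32 in knockdown and -0.19 in rescue, in the authors' deposited table. These between-line differences share groups with the comparisons within lines.

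By RPKM, the most abundant members were mitochondrially encoded genes. All 13 mitochondrial members had their highest RPKM in the rescue group of the containing line, in the authors' deposited table. The 13 are not fully separate measurements, as mt-Atp8 shares 43 bases with mt-Atp6, and mt-Nd4l shares 7 with mt-Nd4. The 13 genes ranged over the 6 groups from 715.4 RPKM for mt-Nd6 to 19709 RPKM for mt-Atp8 in the authors' deposited table. The deposited fold changes disagree for mt-Cytb, mt-Co1 and mt-Atp8, and put control cells of the lacking line above rescue cells of the containing line. Against control cells of the lacking line, those of the containing line had log2 fold changes of -0.43, -0.23 and -0.40 in the authors' deposited table. Rescue against control in the containing line was 0.39, 0.14 and 0.37 for the same genes. The sequence of mt-Atp8, a small subunit of ATP synthase, is shown because its last 43 bases, in capitals, are also the first 43 of mt-Atp6, so that reads there belong to both (GRCm38, chrM:7766-7969, plus strand).
mt-Atp8: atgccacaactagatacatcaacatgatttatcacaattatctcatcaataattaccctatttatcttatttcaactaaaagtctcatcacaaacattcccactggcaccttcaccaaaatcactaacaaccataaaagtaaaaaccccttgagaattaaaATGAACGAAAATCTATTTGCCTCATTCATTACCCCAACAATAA
In the authors' deposited table, mt-Atp8 was at 19709 RPKM in rescue, 11887 in knockdown and 14502 in control cells of the containing line, and at 14579, 10917 and 17967 RPKM in rescue, knockdown and control cells of the lacking line. Its partner mt-Atp6, which forms the proton channel, was at 7787, 5708 and 6738 RPKM in rescue, knockdown and control cells of the containing line, and at 7055, 5295 and 6682 RPKM in the same groups of the lacking line, in the authors' deposited table. Both were lowest in knockdown cells of each line, and the unadjusted p of mt-Atp8 on knockdown in the lacking line was 0.0190 (log2 fold change -0.76, FDR 0.258) in the authors' deposited table.

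For rescue against knockdown, the 13 mitochondrial members had a median log2 fold change of 0.42 in the containing line, with all 13 above 0, and of 0.10 in the lacking line, with 9 above 0, in the authors' deposited table. For rescue against control the medians were 0.39 (13 of 13 above 0) and -0.08 (6 of 13 above 0), in the authors' deposited table. As ratios of RPKM with a pseudocount of 1, the medians of the lacking line were 0.22 against knockdown and 0.16 against control (10 of 13 above 0), so that the sign of the second differs, from the authors' deposited table. None passed an FDR of 0.05 in these comparisons of the authors' deposited table. By edgeR in the authors' deposited table, 2 were higher at an unadjusted p under 0.05 for rescue against knockdown in each line (0.604% of all genes in the containing and 2.45% in the lacking line), and for rescue against control 4 in the containing line (4.05% of all genes) and 1 in the lacking line (3.03%). The nearest was mt-Nd1, a membrane core subunit of complex I at the ubiquinone site. It was at 5402 RPKM in rescue, 3644 in knockdown and 3121 in control cells of the containing line, and at 3471, 2978 and 3103 RPKM in rescue, knockdown and control cells of the lacking line, in the authors' deposited table. Its rescue against control log2 fold changes were 0.87 (FDR 0.0536) in the containing and -0.08 (FDR 1) in the lacking line of the authors' deposited table. The difference between the lines was 0.95 on the log2 scale for mt-Nd1, with an unadjusted p of 0.0131 and an adjusted p of 1 from the signed z test. It was the 1 mitochondrial member with an unadjusted p under 0.05 for that difference, where 0 had an adjusted p under 0.05 (1.92% and 0.0186% of all genes).

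The mitochondrial gene with the widest spread was mt-Nd3, a membrane subunit of complex I. In the authors' deposited table, mt-Nd3 was at 5992 RPKM in rescue, 3629 in knockdown and 2646 in control cells of the containing line, and at 3811, 1219 and 1773 RPKM in rescue, knockdown and control cells of the lacking line. Between rescue and knockdown, mt-Nd3 had a log2 fold change of 0.74 (FDR 1) in the containing and of 1.61 (FDR 0.531) in the lacking line of the authors' deposited table. The other ND genes (mt-Nd2, mt-Nd4, mt-Nd4l, mt-Nd5 and mt-Nd6) had 0.20 to 0.54 in the containing and -0.19 to 0.19 in the lacking line for the same comparison in the authors' deposited table. The cytochrome b gene mt-Cytb of complex III was at 6629 RPKM in rescue, 5398 in knockdown and 5291 in control cells of the containing line, and at 6486, 5938 and 6114 RPKM in rescue, knockdown and control cells of the lacking line, in the authors' deposited table. Of the complex IV core genes, which bind the heme and copper centres or lie beside them, mt-Co1, mt-Co2 and mt-Co3 had rescue against knockdown log2 fold changes of 0.29, 0.46 and 0.41 in the containing and of -0.07, 0.46 and 0.67 in the lacking line, in the authors' deposited table. The difference between the lines was not past the threshold for any of them.

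**Figure D4:**
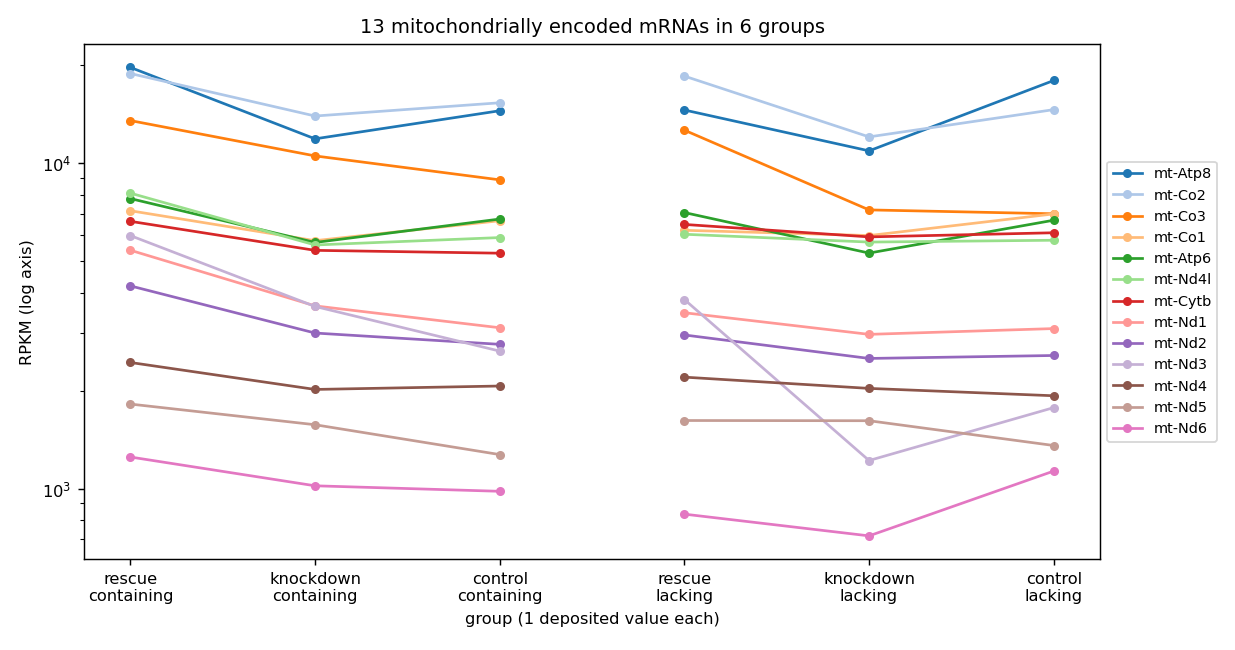
RPKM on a log axis of the 13 mitochondrially encoded genes in the 6 groups, from the authors' deposited table, with lines joining the groups of a line. By RPKM, all 13 are highest in the rescue group of the containing line, where mt-Atp8 reaches 19709 RPKM. The deposited fold changes disagree for mt-Cytb, mt-Co1 and mt-Atp8.

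Transcript length ran with the values of rescue against knockdown in the lacking line, in other genes as well. The median transcript of the nuclear members is 711 nt long, against 1935 nt for all genes tested, by GENCODE M21. Among genes at 5 RPKM or more that are not members, the median log2 fold change of rescue against knockdown in the lacking line was 0.19 under 700 nt, 0.21 from 700 to under 1000 nt, 0.16 from 1000 to under 1500 nt, 0.03 from 1500 to under 2500 nt and -0.12 at 2500 nt or more, in the authors' deposited table. In the same classes the nuclear members had medians of 0.69, 0.59, 0.36, 0.26 and 0.35 in the authors' deposited table, the last from 2 genes and the one before from 4. In the containing line the medians of the other genes lay between -0.02 and 0.01 in every class of the authors' deposited table. Among genes at 50 RPKM or more and under 1000 nt, the lacking line had a median of 0.67 over 48 nuclear members and 0.34 over 666 other genes, and the containing line 0.07 and -0.01, in the authors' deposited table. Cytosolic ribosomal protein genes, which are also short and abundant, had medians of 0.01 and 0.61 in the containing and lacking lines of the authors' deposited table, with 48 and 81 of 84 above 0. The part of transcript length in the result was not tested, and these classes were chosen after the values had been seen.

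**Figure D5:**
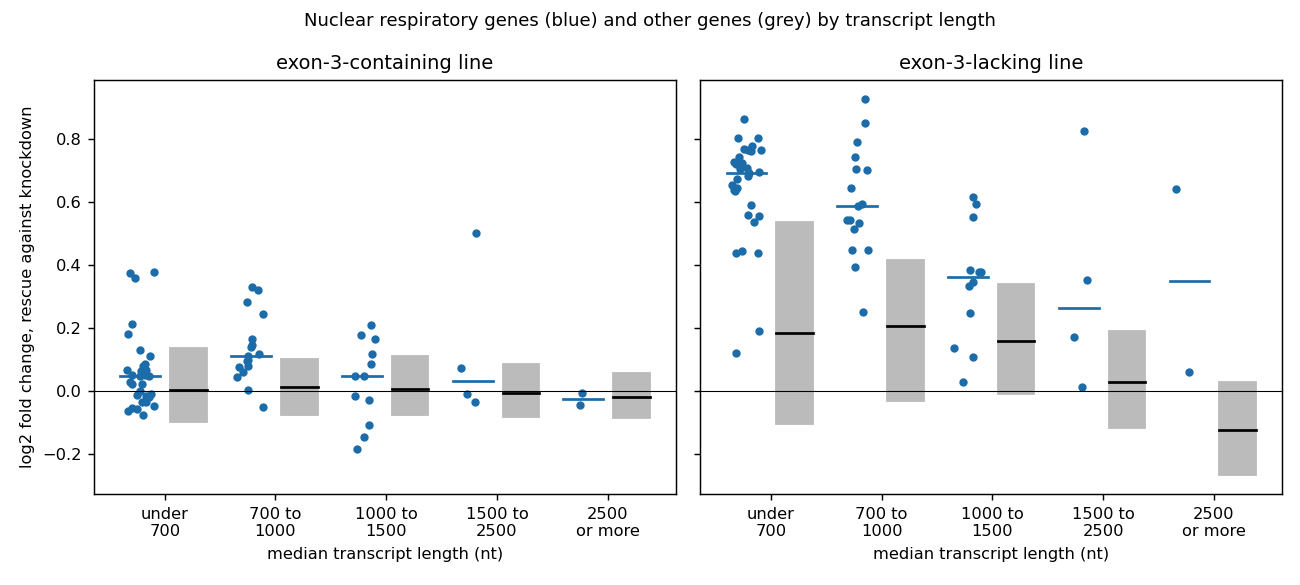
Log2 fold change of rescue against knockdown by class of median transcript length (nt), in the containing (left) and lacking line (right), from the authors' deposited table, for genes at 5 RPKM or more; blue points are nuclear members with their median, grey boxes the middle 50% of other genes with their median in black. In the lacking line the medians of the members lie at 0.69 under 700 nt and 0.26 from 1500 to under 2500 nt, and those of other genes at 0.19 and 0.03.

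Other genes of the pathway are described from lists of known genes. In the authors' deposited table, the 14 tested nuclear cytochrome c oxidase genes had rescue against knockdown medians of 0.09 (containing) and 0.74 (lacking line). There, 10 and 14 were above 0. By edgeR in the authors' deposited table, 0 were called (0.00464% and 0.0232% of all genes). At an unadjusted p under 0.05 by edgeR, 0 and 3 were higher (0.604% and 2.45% of all genes). On knockdown 1 of the 14 was called higher and 0 lower in each line of the authors' deposited table (3.68% of all genes called in the containing and 2.26% in the lacking line), namely Cox6a2, the muscle-type isoform of subunit 6A, at 80.8 RPKM in knockdown against 6.32 RPKM in control cells of the containing line. Cox6a2 was at 71.5 RPKM in rescue cells of the containing and at 53.3 RPKM in rescue cells of the lacking line, in the authors' deposited table. Beside it, the 10 cardiac and skeletal muscle markers summed to 13.8 RPKM in rescue, 23.0 in knockdown and 14.7 in control cells of the containing line, and to 7.33, 8.00 and 5.00 RPKM in rescue, knockdown and control cells of the lacking line, in the authors' deposited table. Between 2 and 4 of the 10 were at 1 RPKM or more, Tnnt2 was the highest in each group (2.01 to 16.2 RPKM) and Myh6 was listed at 0 throughout, in the authors' deposited table. Their part in the Cox6a2 values was not tested. The hypoxia-type isoform gene Cox4i2 was called lower for rescue against control in the containing line (log2 fold change -1.45, FDR 0.0483, with 2.27% of all genes called), at 6.75 RPKM in rescue against 17.2 RPKM in control cells, in the authors' deposited table. The 36 assembly factor genes had medians for rescue against knockdown of 0.10 and 0.25 in the containing and lacking lines of the authors' deposited table. By edgeR, 0 were called (0.00464% and 0.0232% of all genes). At an unadjusted p under 0.05 by edgeR, 0 and 4 were higher (0.604% and 2.45% of all genes). The 34 mitochondrial ribosomal protein genes had 0.05 and 0.21, the 18 import genes -0.02 and 0.27, the 13 tricarboxylic acid cycle genes 0.00 and 0.11, and the 21 tested genes of mitochondrial DNA upkeep and expression 0.03 and -0.07, with 0 called in each by edgeR in the authors' deposited table. Of all genes, 0.00464% were called in the containing and 0.0232% in the lacking line. At an unadjusted p under 0.05, 0 of the genes of these lists were higher in the containing line (0.604% of all genes), in the authors' deposited table. In the lacking line, 1 mitochondrial ribosomal protein gene and 1 gene of mitochondrial DNA upkeep and expression were higher (2.45% of all genes), in the authors' deposited table. Of 11 regulators of mitochondrial biogenesis, 1 was called by edgeR on knockdown in the lacking line of the authors' deposited table (2.26% of all genes) and 0 in the containing line (3.68%). It is the growth regulator gene Myc, at 83.7 RPKM in knockdown against 51.1 RPKM in control cells of the lacking line (log2 fold change 0.74, FDR 0.0451), in the authors' deposited table. In the containing line Myc was at 78.5 RPKM in knockdown against 50.2 RPKM in control cells (log2 fold change 0.60, FDR 0.116), in the authors' deposited table.

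Promoters of nuclear respiratory genes are known to carry sites of NRF1, of ETS factors (NRF2, also called GABP) and of YY1, and the members shared a sign in the lacking line, so these motifs were counted. RefSeq promoter windows on GRCm38.p6, from 250 bases before to 50 after a start, matched 57 of the 69 tested nuclear genes. Exact matches on both strands were searched for the palindromic NRF1 consensus, CCGGAAG (ETS) and AAGATGGCG (YY1), and matches of different motifs overlapped in 0 windows. NRF1 letters were in 4 of 57 member genes (7.02%). They were in 2.64% of 6982 other genes at 5 RPKM or more and in 1.07% of all 27025 genes with a window. ETS letters were in 14 of 57 member genes (24.6%), against 24.3% of the other expressed and 9.93% of all genes. YY1 letters were in 7 of 57 member genes (12.3%), against 4.44% of the other expressed and 1.64% of all genes. These shares were not tested. The promoters shown held matches of more than 1 motif: Atp5j, coupling factor 6 of the stalk (chr16:84834927-84835226, minus strand), with YY1 and then ETS letters in capitals, and Atp5k, the e subunit (chr5:108434350-108434649, minus strand), with NRF1 letters and then ETS letters on the opposite strand.
Atp5j promoter: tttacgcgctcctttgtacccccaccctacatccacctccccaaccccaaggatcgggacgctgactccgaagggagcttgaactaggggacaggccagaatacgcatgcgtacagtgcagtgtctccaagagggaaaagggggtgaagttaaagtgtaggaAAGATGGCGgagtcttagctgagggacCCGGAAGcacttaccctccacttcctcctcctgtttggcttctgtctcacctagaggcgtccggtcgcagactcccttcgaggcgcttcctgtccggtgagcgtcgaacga
Atp5k promoter: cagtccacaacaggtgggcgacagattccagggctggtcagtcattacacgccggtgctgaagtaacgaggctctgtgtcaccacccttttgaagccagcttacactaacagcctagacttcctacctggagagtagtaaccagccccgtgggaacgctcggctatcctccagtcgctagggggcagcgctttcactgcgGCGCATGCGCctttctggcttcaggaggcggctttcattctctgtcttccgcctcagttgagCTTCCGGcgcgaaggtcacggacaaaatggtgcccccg
In the authors' deposited table, rescue against knockdown log2 fold changes were 0.11 for Atp5j and 0.05 for Atp5k in the containing line, and 0.55 and 0.77 in the lacking line.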

How the data were processed

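The 12 stranded polyA libraries began from 1000 ng RNA, and inserts averaged 540 nt, per the labels' protocols. The deposited expression table gives the authors' RPKM per group, with log2 fold changes, p-values and FDR values. Salmon 0.14.1, edgeR and the build mm9 are named per the submitters' processing notes. The deposited splicing tables give percent inclusion per library and the authors' changes in percent, in the event names and columns of vast-tools per the file headers, with no version stated. Read depth is unknown, so no counting interval was computed.

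The authors' FDR under 0.05 was counted over 21541 genes. Differences between lines used signed z values with Benjamini-Hochberg adjustment, with the lines taken as independent. Percent inclusion was tested with limma 3.58.1 in R 4.3.3 (6 group means, trended robust variance) for events quantified in all 12 libraries whose mean lay between 2% and 98%. Named genes were all mitochondrial and complex II members, all called members, the 2 highest and 2 lowest of complexes I and III and ATP synthase on knockdown, the c-ring genes and the 10 most abundant in controls, with splicing events under an adjusted p of 0.05 and the 6 largest on knockdown. Members and lists were chosen with earlier results of these data known. Scripts were tested on simulated data.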

Additional observations from a re-analysis of the deposited data

How the results depend on the processing

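With an FDR under 0.1, 1 nuclear member (Ndufv3) was called on knockdown in the lacking line and 1 mitochondrial member (mt-Nd1) for rescue against control in the containing line, where the counts were 0 at 0.05. The other 22 of 24 recounts of called members and all 4 recounts of line differences gave 0. The median log2 fold change from the ratio of RPKM values with pseudocounts of 1 and 0.1 was 0.44 and 0.45 (against 0.34 in the authors' deposited table) for nuclear members for rescue against control in the lacking line. For mitochondrial members in that line it was 0.22 and 0.22 (0.10) for rescue against knockdown and 0.16 and 0.16 (-0.08, so the sign turned) for rescue against control, and the cause was not tested. The other 30 of 36 medians moved by at most 0.1, and for rescue against control in the containing line the nuclear median of -0.02 became 0.01.

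The count of called splicing events of members on knockdown was 1. It was 0 without the filter on the mean, 3 without a minimum size and 0 to 1 with single libraries left out. The Sdhaf2 call was lost without replicate 1 of control in the containing line (limma, adjusted p = 0.0520) or the lacking line (0.0521) and without the filter on the mean (0.176). Over the 12 fits without 1 library its change was -29.4 to -21.0 points. That of Uqcrh was 5.22 to 7.24 points, with an adjusted p of 0.0202 to 0.124, under 0.05 in 6 of 12. With the replicate number as a block, 1 member event was called, at Sdhaf2 (adjusted p = 0.0142, limma). The deviations of same-numbered libraries correlated at 0.149 to 0.310 between groups of a line and at 0.0417 to 0.221 between lines. With 2 numbers a group and no label that ties them to a shared culture or day, this is a hint from the data and not a pairing by design. The expression table has 1 value per group, so no library could be left out or paired there. A group left with 1 library was assumed to vary like the others.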

Other observations

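Pseudogene-named rows were not members, and 1 of the 9 that match the member names carries a test. It is Ndufb1-ps, listed in the authors' deposited table at 139.6 RPKM in rescue, 118.8 in knockdown and 100.0 in control cells of the containing line, and at 147.8, 76.7 and 87.8 RPKM in rescue, knockdown and control cells of the lacking line. It was chosen after its values were seen.

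Of the 187 introns of member genes with a value in all 12 libraries, 8 (4.28%) were under 100 nt, against 4362 of 65459 introns of all genes (6.66%). In this class the median difference in retention between knockdown and control was -0.03 points for member genes and 0.87 points for all genes in the containing line, and 0.20 and 0.84 points in the lacking line. Among introns of 1000 nt or more it was 0.09 points for the 106 of member genes and 0 points for all genes in the containing line, and 0.12 and 0 points in the lacking line. There, 72.6% of the member introns were higher in knockdown than in control cells of the lacking line, against 45.9% of all. The rest include introns with a difference of 0, so these shares do not give how many were lower. These values were not tested.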
